A study of Gallus gallus with 28 samples.

Results

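The comparison described here sets 3 RNA libraries from chicks with conditioned parents against 3 from chicks with non-conditioned parents, all taken 6 h after lipopolysaccharide (LPS) was given by injection into the third ventricle. The 6 libraries were chosen by the names of their count columns, and they are 6 of the 28 samples of the series, of which 18 are RNA libraries and 10 are bisulfite libraries not analysed here. The chicks were taken on day 10 after hatching, and the tissue was a whole lysate of the anterior preoptic hypothalamus. The labels of the bisulfite samples give their strain as Cobb, a broiler chicken, and the chicks were not heat conditioned themselves. By the same labels, conditioning meant incubation at 39.5 °C during 12 h of each day from embryonic day 7 to day 16, with control eggs kept at 37.8 °C. The RNA labels speak of conditioned parents and the bisulfite labels of paternal conditioning, so which parent carried the treatment is taken only as far as these words go. The 4 other groups of 3 RNA libraries each, used for reference, are heat (6 h in a room at 36 °C, after housing at 30 °C) and unchallenged (t0), each with conditioned and with non-conditioned parents. Both LPS groups received the injection, so handling and injection are shared between them. Libraries are numbered 1 to 3 as in their titles, and the labels do not say whether each is 1 chick, so that p-values measure the spread between libraries, which may be partly technical.

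LPS is a component of the outer membrane of Gram-negative bacteria. It is sensed by toll-like receptors on microglia, macrophages and endothelium, which answer through NF-κB with cytokines, chemokines and prostaglandin synthesis. The preoptic hypothalamus holds temperature-sensitive neurons, and prostaglandin acting there is the classical trigger of fever, so that this region is where an immune signal meets the control of body temperature. The question put by the comparison is whether embryonic heat conditioning of the parents left a difference in the transcript levels that the offspring show after this challenge.

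The deposited table names its genes by Ensembl identifier alone, so genes are given here by identifier and no function is attached to them. The lists of cytokines, chaperones, hypothalamic peptides and cell type markers drawn up for the tissue could not be applied, and the labelled tissue could not be checked against its markers. In their place, genes were grouped by their own response to LPS. Library totals were 1166296 to 2651603 counts with conditioned parents and 1841024 to 2154313 counts with non-conditioned parents, so the ranges overlapped, and 10047 to 10660 genes had at least 1 count. In each LPS library the top 10 genes held 12.5% to 16.1% of the counts. No pair of RNA libraries had identical counts.

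The lineages were not separated in the LPS libraries as a whole. Across the 7921 genes tested, which are not independent replicates, log2 levels of 2 libraries correlated at 0.946 to 0.951 for the 3 pairs with conditioned parents and at 0.96 to 0.967 for the 3 pairs with non-conditioned parents. The 9 pairs that cross the lineages lay at 0.949 to 0.963. Libraries with conditioned parents were thus no more like each other than like those of the other lineage. Reduced to the smallest of the 6 totals by a random draw, the pairs gave 0.944 to 0.953 with conditioned parents, 0.955 to 0.961 with non-conditioned parents and 0.948 to 0.958 across. The first principal component of the 6 libraries held 28.2% of the variance and set conditioned library 2 (37.8) against conditioned library 1 (-19.6), with the other 4 between -14.5 and 0.854. The second, with 22.6%, set conditioned library 3 (31.4) against conditioned library 1 (-21.2), with the other 4 between -10.3 and 5.86.

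Conditioned library 1 stood apart by a small set of genes. Among the 6103 tested genes with a mean of at least 10 CPM (counts scaled to the library total corrected by TMM factors) over the 6 LPS libraries, 21 had over 50% of their summed level in 1 library, and for 14 of them that was conditioned library 1. Each of the other 5 libraries held 1 or 2 such genes. ENSGALG00000006453.6 stood at 7830, 948 and 1000 CPM in conditioned libraries 1 to 3, against 887, 584 and 661 CPM in non-conditioned libraries 1 to 3. ENSGALG00000015143.6 stood at 513, 26.9 and 1.32 CPM, against 5.58, 0.538 and 0 CPM. Both genes were chosen after their values were seen, and each is high in 1 library of the 6. Within LPS, non-conditioned library 3 held 2 of the 14 genes at over 50% of the level of conditioned library 1. Outside LPS, t0 libraries 2 and 3 with conditioned parents held 10 and 7 of these 14 genes at over 50% of the level of conditioned LPS library 1, heat library 2 with non-conditioned parents held 5, and each other library held between 0 and 2. ENSGALG00000015143.6 had 716 and 401 CPM in these t0 libraries and 372 CPM in that heat library. With the limit of 10 CPM dropped, an absolute log2 difference over 2 was found for 23 genes, not all of them in the set above. Of these 23, 19 had over 50% of their level in 1 library, in 13 cases conditioned library 1. In 6 of the 23 the lineages did not overlap. Without conditioned library 1 the number over 2 was 58, of 8158 genes tested with 2 libraries against 3. Both the genes tested and the number of libraries differ from those behind the 23. These counts therefore do not show the part of this library in the large differences. Values without this library are given below for some of the results only.

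Between the lineages under LPS no gene passed the test. EdgeR called 0 genes higher in the conditioned lineage, or 0% of the 7921 tested, and 0 lower (0%), at an adjusted p under 0.05, with a smallest adjusted p of 0.747. Unadjusted p-values below 0.05 were found for 301 genes (3.8%), with 180 estimates above 0 and 121 below. DESeq2 and voom with quality weights also called 0 genes, with 275 and 321 genes at an unadjusted p under 0.05. Without conditioned library 1 edgeR again called 0, with 464 of 8158 genes at an unadjusted p under 0.05 (5.69%). The median log2 difference over all genes tested was 0.0017.

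A missed threshold does not show that the lineages are alike, so the size of difference that the data allow was read from the 95% interval of each gene. For 5313 genes (67.1%) the whole interval lay within a 2-fold change in either direction. This share depended on level. Above 100 CPM, 1677 of 1730 genes were bounded in this way and the median half-width of the interval was 0.325 on the log2 scale, or 1.25-fold. From 20 to 100 CPM, 2775 of 3125 genes were bounded, with a median half-width of 1.4-fold. From 5 to 20 CPM, 853 of 2398 were, with a half-width of 1.79-fold, and under 5 CPM 8 of 668, with 2.41-fold. For most genes above 20 CPM a 2-fold lineage difference after LPS lay outside the interval, whereas for most genes below it such a difference lay within the interval on at least 1 side.

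**Figure D1:**
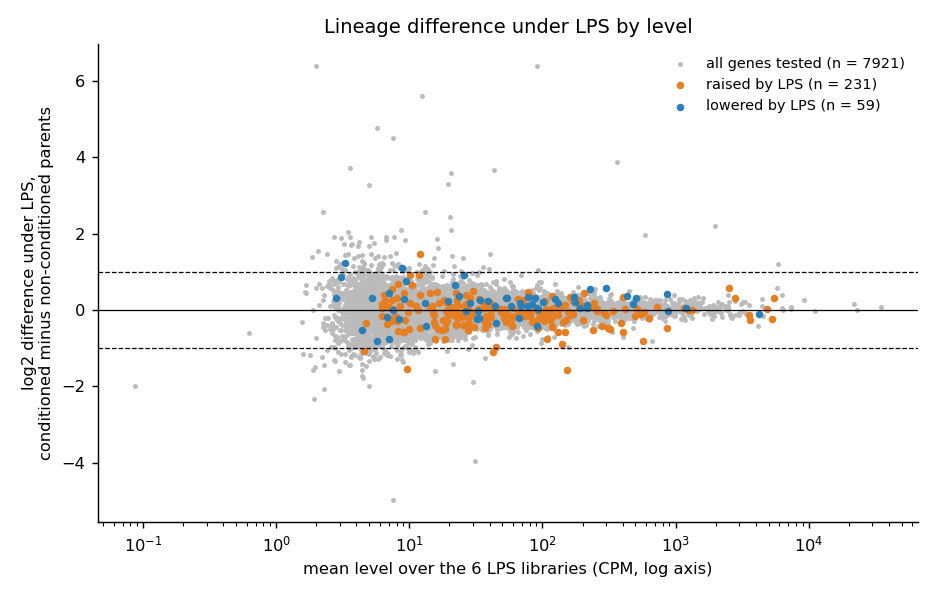
Each point is 1 of the 7921 genes tested, with its mean level over the 6 LPS libraries (CPM, log axis) against the log2 difference, conditioned minus non-conditioned parents, where 231 genes raised by LPS are orange and 59 lowered by LPS are blue. All other genes are grey. Dashed lines mark a 2-fold difference, and a reader should see that the spread narrows with level.

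The ordering of single libraries gave a similar picture. In 362 genes (4.57%) all 3 conditioned libraries lay above all 3 non-conditioned ones, and in 384 genes (4.85%) they lay below, together 9.42% of the genes tested. These counts are a description without a test. Under heat 10.8% and at t0 19.8% of the genes had no overlap.

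The genes with the smallest p were chosen by a rule that used the LPS libraries of both lineages, so their LPS values describe the edge of the distribution and are no finding. Of the 6103 tested genes with a mean of at least 10 CPM, 280 were higher and 284 lower with conditioned parents without overlap. Over all genes tested these shares were 4.57% and 4.85%. The 2 genes of each direction with the smallest p are given. ENSGALG00000011255.6 had 20.6, 19.7 and 25.8 CPM in the conditioned libraries, against 9.31, 6.99 and 9.38 CPM in the non-conditioned ones. Its log2 difference was 1.36 ± 0.29 (SE), with an edgeR adjusted p of 0.747. Elsewhere it had means of 18.9 ± 2.64 and 13.5 ± 5.27 CPM under heat and 19.5 ± 4.14 and 17.1 ± 1.46 CPM at t0 in the conditioned and non-conditioned lineage (SD, n = 3 each), so the non-conditioned LPS group was the lowest of the 6 groups. ENSGALG00000034067.1 had 18.3, 14.3 and 23.8 CPM in the conditioned libraries, against 7.91, 8.6 and 10.4 CPM in the non-conditioned ones (log2 difference 1.08 ± 0.26, edgeR adjusted p = 0.999). In the conditioned lineage it averaged 18.8 ± 4.77 CPM under LPS and 13.3 ± 0.969 CPM at t0, and in the non-conditioned lineage 8.98 ± 1.3 CPM under LPS and 19.6 ± 3.09 CPM at t0. These values share the LPS libraries that chose the gene and are given without a test.

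ENSGALG00000014977.5 had 41.2, 37.6 and 48.3 CPM in the conditioned libraries, against 70.3, 61.8 and 76.6 CPM in the non-conditioned ones. The log2 difference was -0.71 ± 0.15 (edgeR adjusted p = 0.747). Under heat it averaged 57 ± 1.95 and 59.2 ± 6.48 CPM, and at t0 58.5 ± 8.03 and 58.4 ± 1.79 CPM, in the conditioned and non-conditioned lineage, so the 4 reference groups lay between the LPS groups. ENSGALG00000001926.5 had 53.1, 87.8 and 92.1 CPM in the conditioned libraries, against 149, 321 and 210 CPM in the non-conditioned ones (log2 difference -1.56 ± 0.38, edgeR adjusted p = 0.999). It is one of the genes raised by LPS. In the conditioned lineage it averaged 77.7 ± 21.4 CPM under LPS and 35.7 ± 8.72 CPM at t0, and in the non-conditioned lineage 227 ± 87.3 CPM under LPS and 30.8 ± 18.2 CPM at t0, again without a test since the LPS libraries chose it. The heat libraries entered this choice through the fitted spread of the gene, though not through its LPS levels. Under heat the gene had 27, 42.9 and 21.9 CPM in the conditioned lineage, against 66.1, 96.2 and 102 CPM in the other. Those groups do not overlap either, with a log2 difference of -1.60 ± 0.41 that also missed the threshold (edgeR adjusted p = 0.63). At t0 the lineages overlapped (0.23 ± 0.43, edgeR adjusted p = 0.842).

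**Figure D2:**
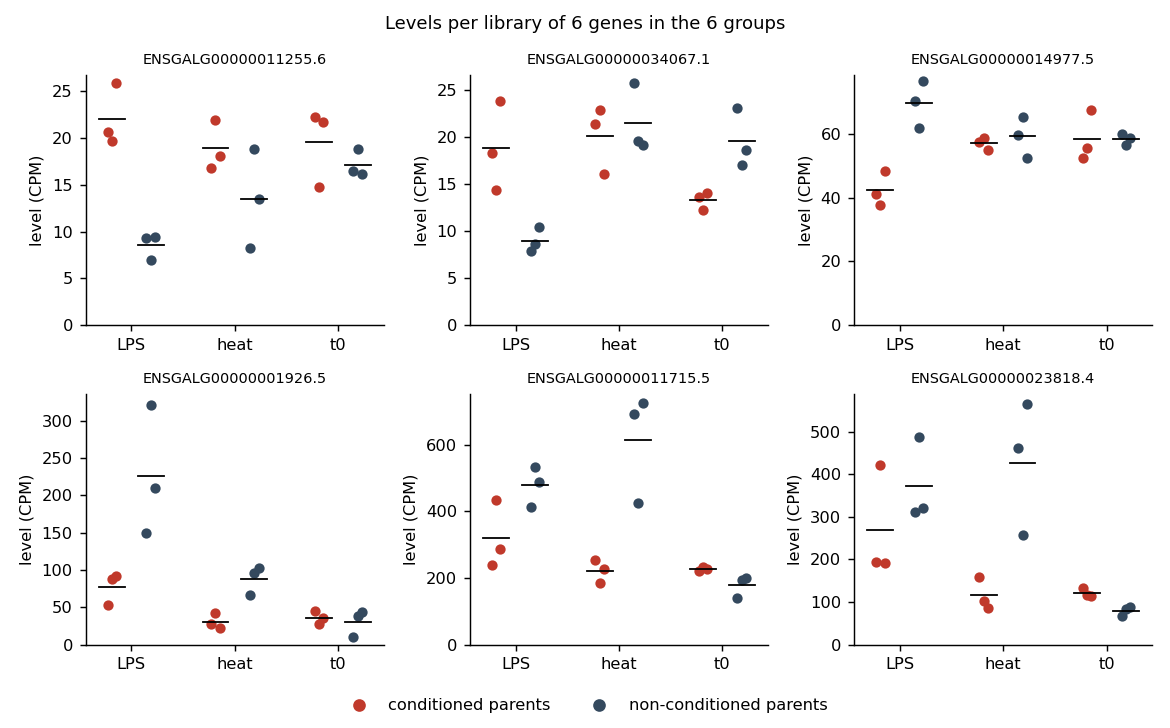
Level in CPM of 6 genes in each library, with a bar at the mean of 3 libraries, for LPS, heat and t0, conditioned parents in red on the left and non-conditioned parents in dark blue on the right. ENSGALG00000001926.5 is lower with conditioned parents under both LPS and heat, and ENSGALG00000011715.5 and ENSGALG00000023818.4 are farther apart under heat than under LPS.

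The genes that differed between LPS and t0 were examined next. The t0 chicks were not injected, so LPS, the injection, handling and time cannot be told apart in this contrast, and raised or lowered by LPS below means under LPS relative to t0. On the average of both lineages LPS against t0 raised 231 genes (2.92% of those tested) and lowered 59 (0.745%) at an edgeR adjusted p under 0.05. The lineages weigh equally in this contrast, so its estimate does not contain their difference. It shares the LPS libraries and the fitted spread of each gene with the lineage test. The choice of genes is therefore not fully independent of that test. In bulk tissue, a changed level per cell and a changed number of cells cannot be told apart. For ENSGALG00000028256.2 the rise was the widest among genes that met the naming rule. It stood at 61, 151 and 94 CPM in the conditioned LPS libraries, against 70.3, 193 and 143 CPM in the non-conditioned ones, and it had 7 counts in all in the 3 conditioned t0 libraries and 8 in the 3 non-conditioned ones. ENSGALG00000034478.1 stood at 143, 151 and 60.3 CPM, against 227, 161 and 143 CPM. Both pairs of groups overlap, with log2 lineage differences of -0.43 (95% interval -1.22 to 0.366) and -0.58 (-1.21 to 0.042), each with an edgeR adjusted p of 0.999. Of the genes that LPS lowered, ENSGALG00000001177.5 stood at 5.24, 4.48 and 9.27 CPM with conditioned parents, against 4.19, 8.06 and 9.38 CPM with non-conditioned parents, and at 28.9 ± 5.15 and 31.1 ± 2.41 CPM at t0. ENSGALG00000024449.4 stood at 16.1, 16.1 and 31.1 CPM, against 13, 22 and 18.2 CPM, and at 63.1 ± 19.4 and 45.5 ± 10.7 CPM at t0. Their lineage differences under LPS were -0.18 (-1.11 to 0.748) and 0.24 (-0.407 to 0.894), each with an edgeR adjusted p of 0.999. The average rise of ENSGALG00000028256.2 was 6.59 ± 0.44 on the log2 scale, but its 7 conditioned t0 counts all lay in library 2, and without that library the rise was 9.23. For ENSGALG00000034478.1 it was 6.19 ± 0.33, and 6.86 without the same library, so no lineage order of these responses is given. The responses of ENSGALG00000001177.5 were -2.20 ± 0.40 in the conditioned and -2.11 ± 0.36 in the non-conditioned lineage, and those of ENSGALG00000024449.4 were -1.57 ± 0.30 and -1.36 ± 0.28. The lineage differences of these responses, with intervals of -1.23 to 1.06 and -1.06 to 0.651, did not pass.

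As a group, the raised genes differed little between the lineages. Their median log2 difference was -0.0753, beside 0.0017 over all genes tested, and 136 of 231 (58.9%) had a lower estimate in the conditioned lineage, beside 49.8% of all genes. At an unadjusted p under 0.05 there were 13 of 231 (5.63%), 2 higher and 11 lower, beside 3.8% of all genes. None passed adjustment. The interval lay within a 2-fold change for 146 of the 231, and 22 had no overlap (9.52%, beside 9.42% of all genes). Together they took 5.1%, 5.36% and 4.63% of the counts in conditioned LPS libraries 1 to 3, against 5.19%, 5.57% and 5.06% in the non-conditioned ones, so the groups overlap. At t0 they took 2.29% to 2.41% with conditioned and 2.18% to 2.4% with non-conditioned parents. Under heat they took 2.5%, 2.42% and 2.3% with conditioned parents, against 2.89%, 2.96% and 2.98% with non-conditioned parents, without overlap, and the median lineage difference was -0.103.

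The raised genes were split by the size of their rise. The 22 genes raised over 16-fold had a median of 48.7 CPM under LPS and 1.63 CPM at t0. Their median lineage difference was -0.131, and 0 of them (0%) reached an unadjusted p under 0.05, beside 3.8% of all genes. Only 7 of the 22 (31.8%) were bounded within 2-fold, beside 67.1% of all genes tested, and the cause was not tested. For the 22 the median SD of the log2 level was 0.563 among the conditioned and 0.453 among the non-conditioned libraries. For all genes tested it was 0.283 and 0.235. The genes of this class then took small shares of the counts. They took 1.35%, 0.998% and 0.77% of the counts in the conditioned libraries, against 1.07%, 1.06% and 0.735% in the non-conditioned ones. The groups overlap. In each library 3 genes of the class held 84.2% to 92.3% of its counts, so this share describes mainly those 3. The 46 genes raised 4- to 16-fold had a median lineage difference of -0.135, with 3 (6.52%) at an unadjusted p under 0.05. The 93 raised 2- to 4-fold had -0.00323, with 4 (4.3%), beside 3.8% of all genes. Signs in these 3 classes turned round without non-conditioned library 2, with medians of 0.113, 0.062 and 0.0509. At t0 their median lineage differences were 0.735, 0.246 and 0.0903. There 17 of 22, 32 of 46 and 55 of 93 were higher in the conditioned lineage, beside 3808 of 7921 of all genes. Levels at t0 were low, with medians of 1.63, 3.25 and 12.6 CPM, and library totals differed by lineage. The part of either was not tested.

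The 70 genes raised by less than 2-fold were the most abundant of the raised classes, with a median of 79.7 CPM under LPS and 53.6 CPM at t0. Their median log2 difference was -0.113, and 48 of 70 (68.6%) had a lower estimate in the conditioned lineage, beside 49.8% of all genes. With 64 of 70 (91.4%) bounded within 2-fold, beside 67.1% of all genes, they had the largest bounded share of the raised classes. The median response of each library, taken as log2(CPM + 1) minus its mean over the 6 t0 libraries, was 0.602, 0.632 and 0.59 in the conditioned LPS libraries, against 0.767, 0.716 and 0.766 in the non-conditioned ones. The 3 conditioned libraries all lay below the 3 others. At t0 the same genes had medians between -0.0148 and 0.0495 with conditioned parents and between -0.0564 and -0.000749 with non-conditioned parents, and their median lineage difference was 0.0351, of the other sign. Under heat the medians were 0.0574, -0.000467 and 0.0138 with conditioned parents, against 0.1, 0.0926 and 0.203 with non-conditioned parents. There too the lineages did not overlap, and the median lineage difference was -0.091, of the same sign as under LPS. No single gene of the class passed adjustment (smallest edgeR adjusted p 0.999), and 6 of 70 (8.57%) had an unadjusted p under 0.05, 1 higher and 5 lower, beside 3.8% of all genes. The median kept its sign in all 15 alternatives, between -0.121 and -0.0756, with 44 to 51 genes lower. The list of the main fit was held fixed in them, and most of them kept all 6 LPS libraries. A steady sign is therefore partly built in.

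The 59 lowered genes lay on the other side of 0. Their median lineage difference was 0.177, and 44 of 59 (74.6%) had a higher estimate in the conditioned lineage, beside 50.2% of all genes. At an unadjusted p under 0.05 there were 11 of 59 (18.6%), 10 higher and 1 lower, beside 3.8% of all genes, and none passed adjustment. The median response of each library was -0.679, -0.544 and -0.665 in the conditioned LPS libraries, against -0.801, -0.78 and -0.698 in the non-conditioned ones, with no overlap. At t0 the median lineage difference was 0.148, with 38 of 59 above 0, beside a median of -0.0168 and 3808 of 7921 above 0 for all genes. A shift of the same sign was thus present at t0. The t0 libraries overlapped, with median responses of -0.0767, 0.108 and 0.201 with conditioned parents, against -0.017, -0.0813 and -0.0141 with non-conditioned parents, and the 2 highest were the conditioned libraries that held the single-library genes. Under heat the median lineage difference was 0.0474, and the median responses of -0.211, -0.19 and -0.0581 with conditioned parents, against -0.239, -0.252 and -0.224 with non-conditioned parents, did not overlap. In the alternatives this list was likewise held fixed, so that steadiness is partly built in. The median under LPS stayed between 0.0966 and 0.239 over 15 alternatives, with 39 to 46 genes higher. Their summed share of the counts overlapped, at 0.944%, 1.36% and 1.25% in the conditioned libraries, against 1.11%, 1.18% and 1.18% in the others. The median responses were also split by size of fall, conditioned LPS libraries first. The 17 genes lowered over 2-fold overlapped, at -1.214, -1.286 and -1.027, against -1.607, -1.245 and -1.195. The 42 lowered under 2-fold did not, at -0.532, -0.354 and -0.454, against -0.687, -0.591 and -0.576. Unadjusted p under 0.05 was found for 1 of the 17 (5.88%) and 10 of the 42 (23.8%).

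**Figure D3:**
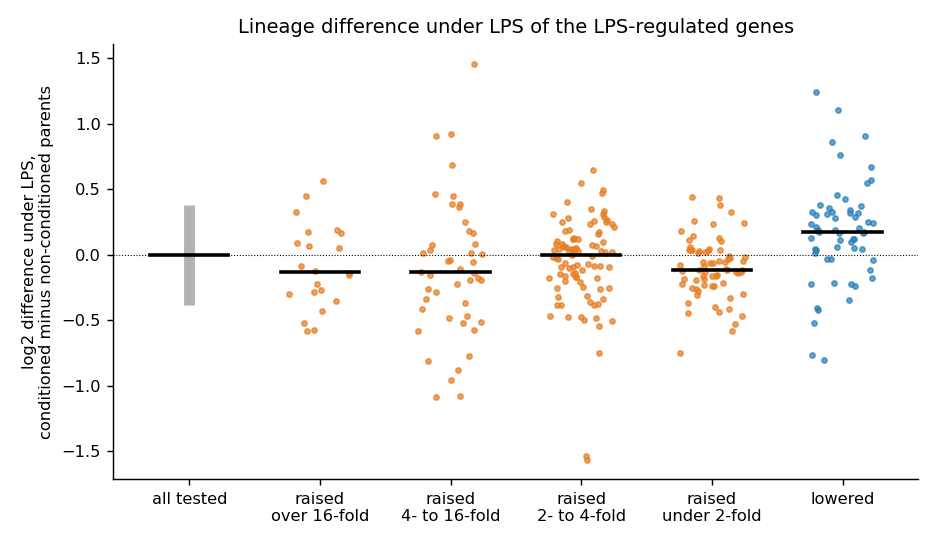
Log2 difference under LPS, conditioned minus non-conditioned parents, of each gene raised (orange) or lowered (blue) by LPS, by size of the rise, with black bars at the medians. For all 7921 genes tested only the median and, as a grey bar, the range from the 10th to the 90th percentile (-0.382 to 0.379) are drawn, and the medians of the classes lie between -0.135 and 0.177.

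**Figure D4:**
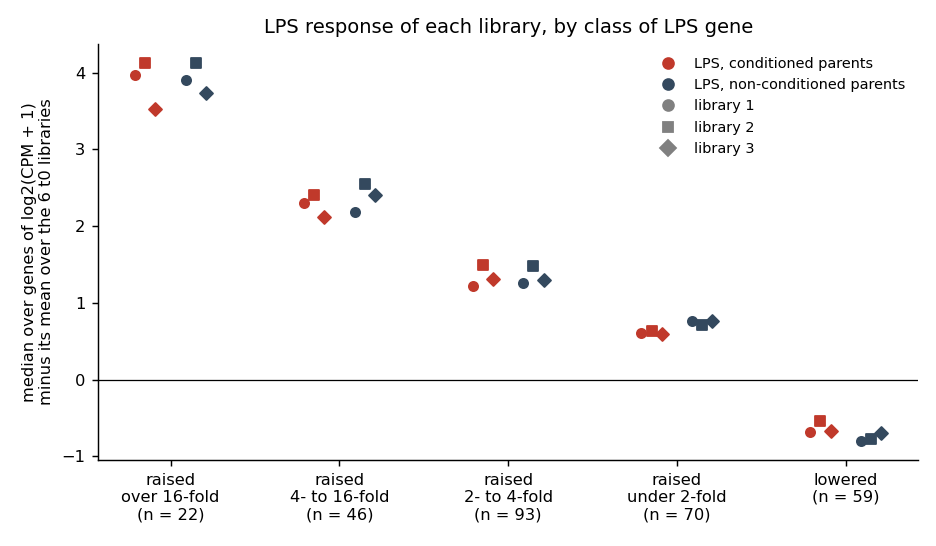
Median over the genes of each class of log2(CPM + 1) minus its mean over the 6 t0 libraries, for the 3 conditioned (red, left) and 3 non-conditioned (dark blue, right) LPS libraries, with the shape giving the library number. The lineages overlap in the 3 classes raised by over 2-fold, and lie apart by a small margin in the class raised by under 2-fold and in the lowered genes.

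Fewer genes lay apart between the lineages under LPS than in either other condition, as counts without a test of their difference. Unadjusted p-values under 0.05 were found for 3.8% of genes under LPS, for 466 genes (5.88%) under heat and for 1243 genes (15.7%) at t0, and the median absolute log2 difference was 0.171, 0.186 and 0.272, with median standard errors of 0.271, 0.273 and 0.274. Depth moved with lineage at t0 alone, where totals were 828424 to 1422688 with conditioned and 3379626 to 4589179 with non-conditioned parents. Its part in the t0 count was not tested. Under heat edgeR called 2 genes (0.0252%), both lower with conditioned parents. Of the 301 genes at an unadjusted p under 0.05 under LPS, 66 (21.9%) were also under 0.05 at t0, where 15.7% of all genes were. The sign was the same in 59 of the 66, in 68.4% of the 301 and in 58.3% of all genes tested. Under heat 37 of the 301 (12.3%) were also under 0.05, where 5.88% of all genes were, and 25 of the 37 had the same sign. These lineage differences come from separate libraries, but their p-values share the fitted spread of each gene. A small spread lowers p in every condition. The shares under 0.05 in both conditions therefore do not show a shared lineage difference. Across the 7921 genes 2 correlations were computed, both after the values were seen. Pearson's r and Spearman's rho were 0.26 and 0.2 between LPS and t0, and -0.11 and 0.0054 between LPS and heat. Neither was steady. The first was 0.13 without conditioned LPS library 1, 0.13 without conditioned LPS library 2 and 0.14 without non-conditioned LPS library 1. It was 0.019 without t0 libraries 2 and 3 with conditioned parents, 0.11 with no filter and 0.38 with a mean of at least 10 CPM. The second changed sign, to 0.0065, without non-conditioned LPS library 3.

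**Figure D5:**
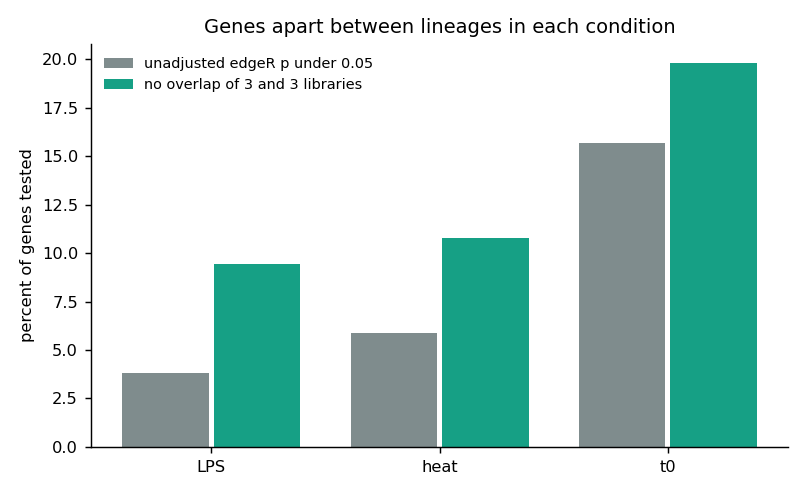
Percent of the 7921 genes tested that had an unadjusted edgeR p under 0.05 between the lineages (grey) or no overlap between 3 conditioned and 3 non-conditioned libraries (green), under LPS, under heat and at t0. Both shares are lowest under LPS, at 3.8% and 9.42%, and highest at t0, at 15.7% and 19.8%.

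Whether the lineage difference under LPS is itself unlike that in another condition was tested directly. For LPS minus heat edgeR called 0 genes, with 303 (3.83%) below 0.05 before adjustment and 0.816 as the smallest adjusted p. DESeq2 called 1, ENSGALG00000041889.2, which had 0 or 1 count in each LPS library and 2972, 752 and 1 counts under heat with conditioned parents, against 0 in all 3 with non-conditioned parents. At t0 it had 0, 5 and 111 counts with conditioned parents, against 0, 6288 and 0 counts with non-conditioned parents. Its edgeR adjusted p was 0.995. For LPS minus t0, which equals the difference of the LPS response between the lineages, edgeR and DESeq2 called 0 genes, and edgeR gave 483 (6.1%) below 0.05 before adjustment and 0.445 as the smallest adjusted p.

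Both genes called under heat were followed into the LPS libraries. ENSGALG00000011715.5 had 240, 436 and 287 CPM under LPS with conditioned parents, against 414, 533 and 490 CPM with non-conditioned parents. One conditioned library, number 2, reached above the lowest non-conditioned one, so the groups overlap. The log2 difference was -0.59 ± 0.21 under LPS (edgeR adjusted p = 0.999) and -1.46 ± 0.22 under heat. ENSGALG00000023818.4 had 195, 421 and 191 CPM under LPS with conditioned parents, against 311, 488 and 321 CPM with non-conditioned parents, again with conditioned library 2 inside the range of the other group. Its log2 difference was -0.49 ± 0.30 under LPS (edgeR adjusted p = 0.999) and -1.86 ± 0.31 under heat. LPS minus heat, the differences were 0.87 ± 0.30 and 1.37 ± 0.43, each with an edgeR adjusted p of 0.98. The genes were picked for their difference under heat, so this gap is not independent of the choice, and neither passed. Both were raised by LPS on the average of the lineages, by 0.96 ± 0.15 and 1.69 ± 0.22 on the log2 scale (edgeR adjusted p = 0.000391 and 4.15e-05). Taken alone, the conditioned lineage passed for neither (0.50 ± 0.22 and 1.14 ± 0.32, edgeR adjusted p = 0.374 and 0.0893) and the non-conditioned lineage for both (1.43 ± 0.22 and 2.23 ± 0.31, edgeR adjusted p = 0.000312 and 0.000125). The difference between the responses was -0.93 ± 0.31 and -1.09 ± 0.43 and did not pass for either (edgeR adjusted p = 0.764 and 0.776).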

How the data were processed

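RNA was extracted with TRI reagent, and bulk MARS-seq libraries, which read 3′ ends, were sequenced, per the labels' protocols. Per the submitters' processing notes the build was galGal5 and the tools were cutadapt, STAR, HTSeq and DESeq2. Their versions and settings, the collapse of molecular identifiers and the use of strand were not given in the sources used here. Per the file headers the deposited table holds raw counts per gene and the authors' normalized signal, which is the count divided by 1 factor per library. The counts were tested, and the signal served for an alternative scaling. Of 11207 identifiers 0 carry a name, and the reference table of 25635 genes lists 0 Ensembl identifiers.

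Low genes were filtered by group (7921 kept, with 99.4% to 99.6% of the counts of each library). TMM scaling, edgeR 4.0.16 (quasi-likelihood fit and test) and R 4.3.3 were used, in a group-means model of all 18 RNA libraries, with Benjamini-Hochberg adjustment over all genes tested and a threshold of 0.05. SE is the log2 difference divided by the square root of F, and intervals use the t distribution. They and the counts of calls were checked on counts simulated from the fitted spread of each gene. No simulated library was made to stand apart, so the check does not cover that case. DESeq2 1.42.0 and voom (limma 3.58.1), other factors and filters, a replicate term, the compared groups alone and the omission of single libraries were alternatives. Without symbols, the named genes are the 2 higher and 2 lower with the smallest p between lineages under LPS and the 2 with the largest rise and fall under LPS (mean of at least 10 CPM, no overlap), plus the 2 genes that differ under heat. The single-library genes, the thinned values, the medians of the lists under the alternatives and the correlations were added after seeing the data. Members and lists were chosen with earlier results of these data known.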

Additional observations from a re-analysis of the deposited data

How the results depend on the processing

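The count of 0 genes between the lineages under LPS held in all 15 alternatives, and that of genes bounded within 2-fold was 4520 to 5423. Genes without overlap numbered 746 of 7921 (9.42%) in the main setting, 1017 with no filter and 568 with a mean of at least 10 CPM. The filter changes the number of genes tested, so these counts cannot be compared as they stand. With 1 LPS library left out (2 against 3 libraries, where a separation is easier) genes without overlap numbered 1363 to 1910. The 1910 were of 8158 genes tested without conditioned library 1. LPS minus heat gave 1 call with DESeq2, and 0 with any library left out. LPS minus t0 gave 0 to 1 calls with 1 library left out, the 1 being ENSGALG00000012879.4 (2.09, edgeR adjusted p = 0.0326) without conditioned t0 library 1. The 290 genes changed by LPS became 176 without conditioned t0 libraries 2 and 3, a fit in which the lone library left in that group is assumed to vary like the others, and 224 to 327 with 1 library left out. The share of counts of the raised genes, conditioned over non-conditioned, was 0.954, and 0.923 to 1.01 in the alternatives.

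With 1 LPS library left out, median lineage differences ran from -0.12 to 0.000347 for all raised genes, from -0.264 to 0.113 for those over 16-fold, from -0.268 to 0.062 for 4- to 16-fold and from -0.0751 to 0.0509 for 2- to 4-fold, each above 0 only without non-conditioned library 2. The 2- to 4-fold median was also above 0 with median-ratio factors (0.00327) and with the replicate block (0.00606). ENSGALG00000024449.4 ran from -0.13 (without conditioned library 3) to 0.45, and ENSGALG00000001177.5 from -0.52 to 0.0609 (without non-conditioned library 3). With 1 library left out, the correlation of LPS with heat ran from -0.14 to 0.0065. It was -0.15 with a mean of at least 10 CPM and -0.32 with DESeq2. The cause was not tested. LPS libraries of the lineages with the same title number deviated together with r of 0.0643, 0.12 and -0.0446. Pairs of unlike title number gave r of -0.118 to 0.0584. The numbers in the column names differ from those in the titles for some libraries. These values therefore cannot decide whether libraries are paired, and no pairing was assumed in the main fit. The replicate block used the title numbers too. With the replicate block edgeR called 0 genes between lineages under LPS (smallest adjusted p 0.723), 0 in both differences of the lineage effect and 320 changed by LPS. Median intervals were widest for genes under 20 CPM, and the part of depth in this was not tested.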

Other observations

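A pair of genes was present or nearly absent library by library, together in all 18 RNA libraries. Both are among the 14 genes with over 50% of their LPS level in conditioned library 1, and the choice followed the inspection of the values. Under LPS ENSGALG00000037690.2 stood at 35.5, 0 and 0.662 CPM with conditioned parents, against 0.465, 0.538 and 30.2 CPM with non-conditioned parents. ENSGALG00000040086.2 stood at 52.4, 1.79 and 1.32 CPM, against 1.86, 1.08 and 37.5 CPM. Both are high in conditioned library 1 and non-conditioned library 3, so 1 of 3 libraries of each lineage held them. Under heat ENSGALG00000037690.2 had 38.9, 33.3 and 82.3 CPM with conditioned parents, against 0, 0 and 61.7 CPM with non-conditioned parents, and at t0 36.5, 38.3 and 56.1 CPM, against 30.2, 35.6 and 0 CPM. ENSGALG00000040086.2 had 35.3, 24.5 and 38.4 CPM under heat with conditioned parents, against 0, 1.5 and 32.6 CPM, and at t0 41.5, 36.5 and 14 CPM, against 44.1, 47.1 and 1.41 CPM. The labels give no property of the chicks that follows this order, and its part in the lineage comparisons was not tested.

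Under LPS most genes tested had a wider spread among the conditioned than among the non-conditioned libraries. Genes are not independent replicates, so the counts below describe these 6 libraries and are no test of the lineages. The other conditions were not compared in this way. The SD of the log2 level was larger among the 3 conditioned than among the 3 non-conditioned libraries in 4697 of 7921 genes (59.3%), and in 4450 (56.2%) after all 6 were reduced to the smallest total, a setting chosen after seeing the data. For the 231 genes raised by LPS it was larger in 118 (51.1%) and 121 (52.4%), and for the 59 lowered in 31 (52.5%) and 30 (50.8%).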
